A study of Schizosaccharomyces pombe with 28 samples.

Results

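The comparison described here is the deletion of cbf12 in fission yeast (Schizosaccharomyces pombe) cells that already lack Zfs1. The zfs1∆cbf12∆ strain (3 arrays, called the double null) was set against the zfs1∆ strain (3 arrays, called the zfs1 null), both from the set of 12 arrays that the submitters number project 582, within a series of 28 arrays. The arrays were taken by strain label, and 2899 S. pombe genes were measured on each array. The comparison, gene lists and tests were chosen with earlier results of these data known. Both strains carry the zfs1 deletion, so the pair differs, as far as the labels say, by cbf12. The cbf12∆ strain (cbf12 null, 3 arrays) and the wild type (WT, 3 arrays) of the same project give the cbf12 deletion with Zfs1 present. Projects 488 and 529 give the zfs1 deletion in 16 other arrays (8 zfs1∆ and 8 WT). All strains were grown in YES, a rich yeast extract medium with supplements, at 30 °C to mid-log phase with no treatment. PolyA RNA was purified, amplified, labelled with biotin and hybridised to Affymetrix yeast arrays, 1 array per sample. Replicates are described as biological in the series text. The sources used here do not say whether each had its own culture, how the genes were deleted, or the strains' mating type and other markers. The p-values therefore measure the spread between these samples, which may be technical.

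Zfs1 is the fission yeast member of the tristetraprolin family, zinc finger proteins that bind AU-rich elements in the 3′ ends of mRNAs and promote their decay. Cells without Zfs1 stick together, and transcripts for cell-surface adhesins and for cbf12 are among those that Zfs1 is known to hold down. Cbf12 belongs to the CSL family of DNA-binding transcription factors, whose animal members act in Notch signalling. In fission yeast Cbf12 promotes cell adhesion, opposite to its paralog Cbf11.

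The deleted gene was checked first. The cbf12 signal was 0.142, 0.173 and 0.604 on the double-null arrays, against 485, 497 and 411 on the zfs1-null arrays. The double-null values lay below the background of 4.47 to 5.44 on these arrays, the 95th percentile of probe sets for other species, so the difference has only a bound and was at least 86.7-fold lower in the double null (adjusted p = 2e-10). The zfs1 signal was 1.91, 7.22 and 0.319 in the double null and 7.70, 3.45 and 4.03 in the zfs1 null, at or near background in both, against 426, 576 and 554 in WT. arz1, a transcript whose decay depends on Zfs1, had a signal of 1251, 1276 and 1322 in the double null and 1283, 1402 and 1312 in the zfs1 null, with overlapping arrays (log2 change -0.05, SE 0.09, adjusted p = 0.72). In WT it was 369, 365 and 389.6, so the high arz1 level of the zfs1 null was present in the double null too.

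Deletion of cbf12 changed 261 of the 2899 genes (9.0%) in cells without Zfs1, tested with limma on log2 signals over all genes at a Benjamini-Hochberg adjusted p under 0.05. Of these, 94 rose (3.24%) and 167 fell (5.76%). At least a 2-fold change was seen for 6 that rose (0.207%) and 22 that fell (0.759%). In all 261 the 3 arrays of the double null did not overlap the 3 arrays of the zfs1 null. Among all genes tested, 328 (11.3%) had non-overlapping arrays with the double null higher and 569 (19.6%) with it lower. The median log2 change over all genes was -0.03. The double-null arrays agreed less well among themselves: the median SD of a gene's log2 signal was 0.138 in the double null, against 0.0779 in the zfs1 null, and double-null replicate 2 stood farthest from its group. The analysis was repeated under 21 other settings (other scalings, filters, weights and arrays left out), and 102 genes passed in each of them, 35 higher and 67 lower. With each array centred on its median 136 genes passed as higher and 108 as lower. Quantile normalization gave 107 and 87, so the split depends on the scaling.

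Many of the genes that fell had their lowest signal of the 4 strains in the double null. For 77 of the 167 genes that fell (46.1%), the 3 double-null arrays lay below the other 9 arrays of the project, as they did for 157 of all 2899 genes (5.42%). In 24 of the 167 (14.4%) it was the zfs1 null that lay above the other 9 arrays, against 3.38% of all genes. The genes that rose divided differently. In 33 of 94 (35.1%) the double null was the highest strain, and in 34 (36.2%) the zfs1 null was the lowest, against 3.97% and 2.17% of all genes. These shares use the same arrays as the calls and are given as a description.

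**Figure D1:**
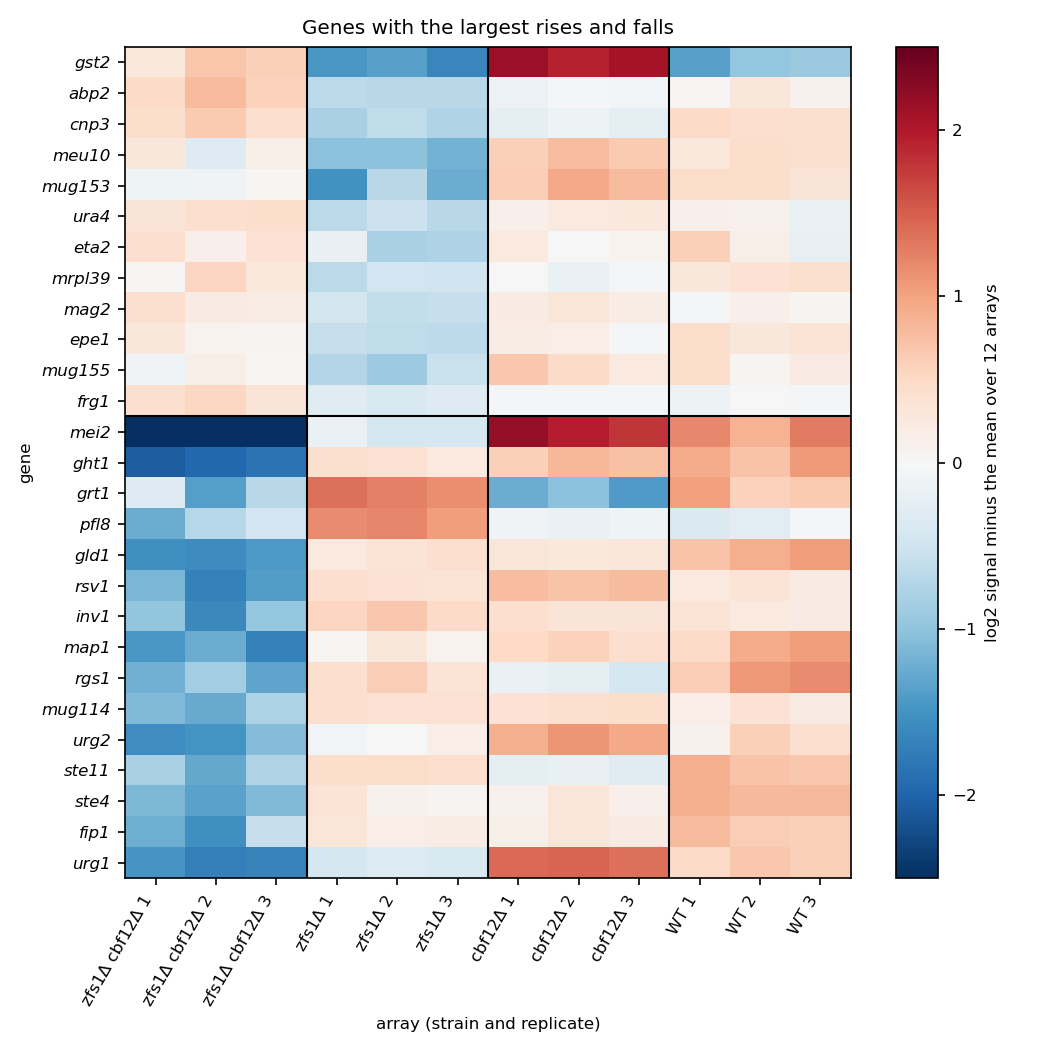
Log2 signal of 27 genes on each of the 12 arrays of project 582, minus the gene's mean over the 12 arrays (colour, red above and blue below the mean, the colour scale ending at 2.5 on each side). Rows are the 12 largest rises (top) and the 15 largest falls other than cbf12 (bottom). The falls are blue in the double null, while many of the rises are blue in the zfs1 null.

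Of the adhesion genes, the flocculin pfl8 fell. pfl8 (SPAC1F8.06, chromosome I), a cell-surface adhesin that drives clumping of cells, had a signal of 146, 209 and 247 in the double null, against 784, 801 and 713 in the zfs1 null. The double-null arrays lay well below all zfs1-null arrays, at 0.256 times the level (log2 change -1.96, SE 0.16, adjusted p = 2.6e-07). The cbf12 null read 325, 305 and 317, near the 267, 286 and 334 of WT, so the high level was found in the zfs1 null alone of the 4 strains, and the double null was the lowest. Flocculins and adhesins were represented by 3 of 11 listed genes, and the other two, the sexual agglutinins map4 (log2 change 0.20, SE 0.14, adjusted p = 0.35) and mam3 (log2 change 0.01, SE 0.17, adjusted p = 0.97), did not pass. The remaining 8 were not analysed here.

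Among 17 measured regulators of flocculation (18 listed), cbf12 itself, grt1 and mbx2 fell and sre2 rose. With the deleted cbf12 counted, 17.6% fell and 5.88% rose, against 5.76% and 3.24% of all genes. grt1, a zinc finger transcription factor encoded near a chromosome end, had a signal of 78.6, 37.6 and 60.3 in the double null and 255, 233 and 219 in the zfs1 null (log2 change -2.06, SE 0.22, adjusted p = 9.2e-06). Its signal was about as low in the cbf12 null, at 41.5, 47.8 and 36.7, against 199, 145 and 155 in WT. mbx2, a MADS-box factor that activates flocculin genes, read 870.1, 1073 and 934 in the double null and 1534, 1616 and 1572 in the zfs1 null (log2 change -0.72, SE 0.13, adjusted p = 0.0018).

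With Zfs1 present mbx2 went the other way, at 1865, 1744 and 1839 in the cbf12 null against 909, 694 and 569.6 in WT, and the test of the difference between the effects gave -2.07 on the log2 scale (SE 0.18, adjusted p = 6.8e-07). sre2, a membrane-bound transcription factor, had 202, 299 and 266 in the double null and 165, 143 and 156 in the zfs1 null (log2 change 0.71, SE 0.15, adjusted p = 0.0077). It did not pass without zfs1-null replicate 2. The paralog cbf11 read 672, 675 and 654 in the double null and 792, 684 and 724 in the zfs1 null, non-overlapping but not past the test (log2 change -0.14, SE 0.09, adjusted p = 0.35). The other regulators on the list, which include the repressors tup11, tup12 and ssn6, the kinase lkh1, the adhesion factors adn2 and adn3 and the mediator subunits srb8, srb10 and srb11, had log2 changes between -0.73 (srb10) and 0.18 (mbx1) and did not pass.

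**Figure D2:**
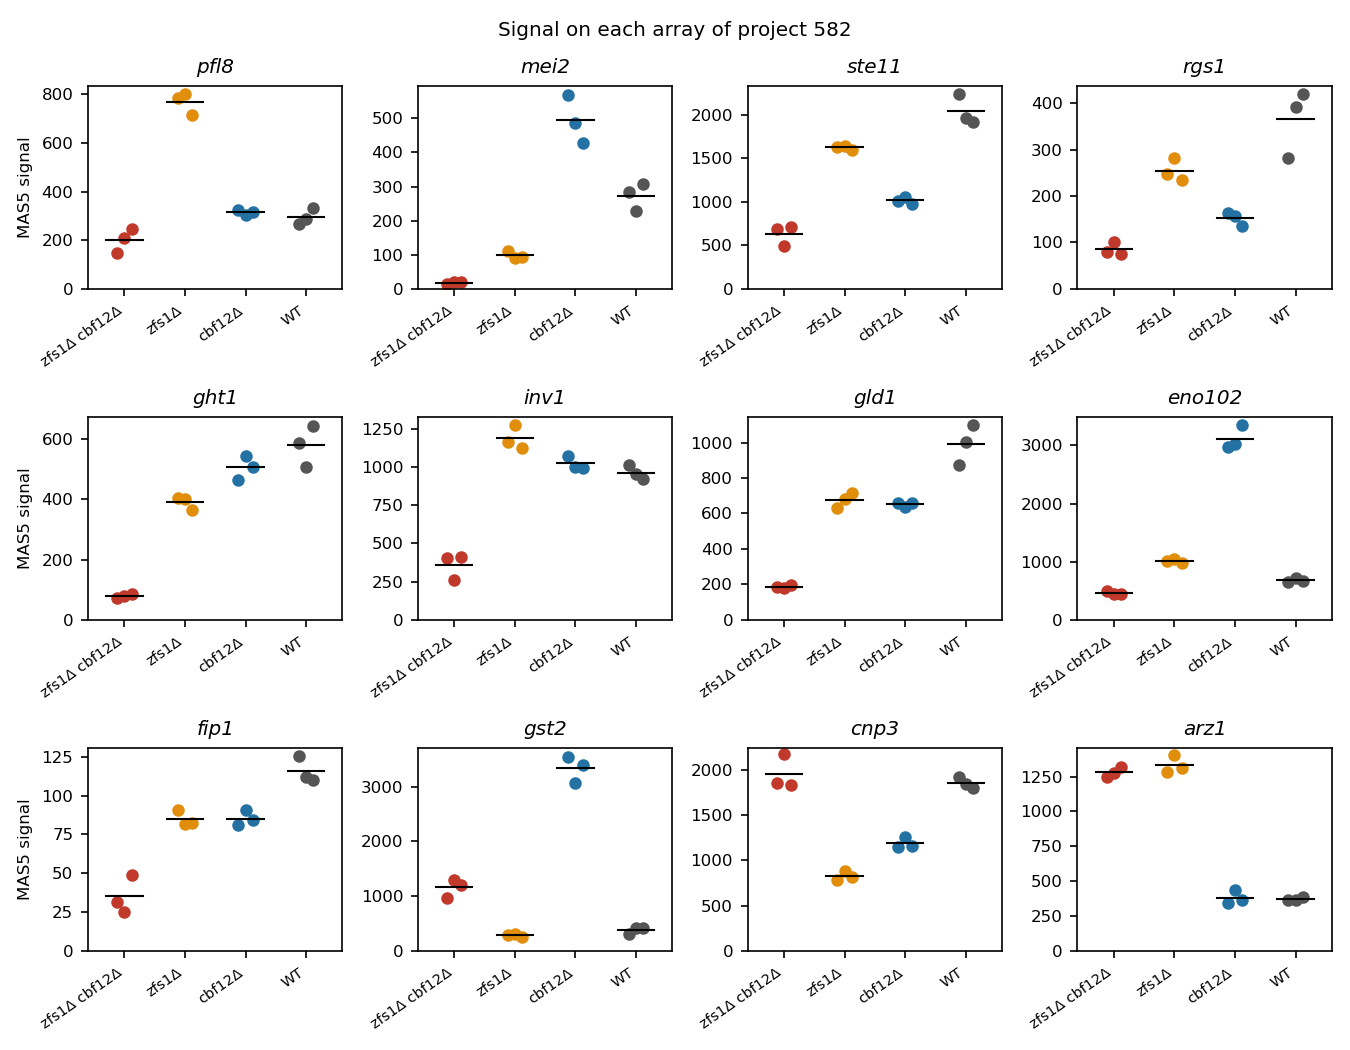
MAS5 signal (linear scale from 0, arbitrary units) of 12 genes on each array of project 582, by strain. Points are arrays, 3 per strain, and lines are strain means. pfl8 is high in the zfs1 null, pfl8, mei2, ste11, rgs1, ght1, inv1, gld1, eno102 and fip1 are lowest in the double null, and arz1 is high in both strains without Zfs1.

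Sexual differentiation starts in fission yeast when nutrients run out: Ste11, a transcription factor held back by the kinase Pat1 and by cyclic AMP signalling, turns on genes for mating and for mei2, and Mei2, an RNA-binding protein, starts meiosis. Of 21 measured regulators of this switch 6 fell (28.6%, against 5.76% of all genes) and none rose (3.24% of all genes). The 21 include zfs1, which is deleted in both strains. Their median log2 change was -0.19, against -0.03 over all genes. mei2 had the largest fall apart from cbf12, with a signal of 15.8, 19.2 and 20.4 in the double null and 111, 91.9 and 92.6 in the zfs1 null (log2 change -2.42, SE 0.16, adjusted p = 5.3e-08). The same gene read 567, 485 and 429 in the cbf12 null, above the 285, 227 and 307 of WT. The 4 strains thus stood apart without overlap, with the double null lowest and the cbf12 null highest.

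ste11 had a signal of 686, 492 and 709 in the double null, against 1633, 1642 and 1598 in the zfs1 null (log2 change -1.39, SE 0.11, adjusted p = 3.1e-07). It was also low in the cbf12 null, at 1014, 1059 and 979 against 2243, 1958 and 1918 in WT, and the difference between the effects did not pass (difference -0.39, adjusted p = 0.15). The WT level was also estimated as the zfs1-null signal of project 582 less the zfs1 effect of projects 488 and 529. At this other WT level, which uses no WT array of project 582, the difference passed (difference -0.50, adjusted p = 0.044). rsv1, a zinc finger factor needed for survival in stationary phase, read 93.8, 64.9 and 79.4 in the double null and 279, 268 and 263 in the zfs1 null (log2 change -1.78, SE 0.13, adjusted p = 1.2e-07). The cbf12 null was higher than WT for this gene, at 354, 343 and 361 against 248, 263 and 241, and the difference between the effects was -2.28 (adjusted p = 4.4e-07). rgs1, a regulator that dampens pheromone signalling, had 80.04, 101 and 74.5 in the double null and 247, 282 and 234 in the zfs1 null (log2 change -1.59, SE 0.16, adjusted p = 6.5e-06). pat1 and sds23 fell by less, with log2 changes of -0.40 (adjusted p = 0.027) and -0.23 (adjusted p = 0.04), and they passed in 17 and 7 of the 21 other settings. mei3, which encodes the inhibitor of Pat1, and mei4, a meiotic forkhead factor, overlapped between the strains (log2 changes -0.02 and -0.03), as did the kinase genes tor1 and tor2 (-0.05 and -0.09).

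In the pheromone response and mating list 7 of 28 genes fell (25%, against 5.76% of all genes) and none rose (median log2 change -0.06). The 7 were the G protein subunit gpa1, the adaptor ste4, the MAP kinase kinase byr1 and the MAP kinase spk1, the regulator rgs1, the cell fusion gene dni1, and map1, a MADS-box factor for genes specific to P cells. map1 had 69.5, 80.3 and 59.0 in the double null and 196, 230.2 and 202 in the zfs1 null (log2 change -1.60, SE 0.16, adjusted p = 4.5e-06). ste4 read 347, 299 and 348 in the double null and 948, 813 and 786 in the zfs1 null (log2 change -1.36, SE 0.10, adjusted p = 8.6e-08), and dni1 203, 189 and 175 against 334, 322 and 297 (log2 change -0.75, SE 0.11, adjusted p = 0.00034). byr1 read 628, 676 and 693 in the double null and 966, 889 and 900.4 in the zfs1 null, a smaller change of -0.47. The pathway genes byr2 (-0.11), ras1 (-0.01) and ste20 (-0.13) and the receptor gene map3 (-0.08) did not pass (adjusted p = 0.54, 0.93, 0.42 and 0.45).

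Each of the 7 genes was separated between the strains with no overlap, as were all 261 genes that passed. The changes of gpa1 and spk1 were -0.53 (adjusted p = 0.0043) and -0.34 (adjusted p = 0.0056), and gpa1 did not pass after quantile normalization. Of genes used in a single mating type, 0 of 6 for M cells and 1 of 4 for P cells (map1) passed. The pheromone receptor gene of M cells, mam2, had 1289, 1454 and 1311 in the double null and 1311, 1292 and 1337 in the zfs1 null, and mfm2, a gene for the M pheromone, 841, 1187 and 1012 against 906, 832 and 895, both overlapping. In samples of whole cultures, fewer cells in a given state and less RNA per cell cannot be told apart.

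Of 45 genes for meiosis and sporulation, 8 fell (17.8%, against 5.76% of all genes) and 3 rose (6.67%, against 3.24%). Their median log2 change was -0.10. Under median centring 3 fell and 4 rose, where 108 of all genes fell and 136 rose. rec10, a component of the axial elements on meiotic chromosomes, had 156, 228 and 194 in the double null and 419, 448 and 384 in the zfs1 null (log2 change -1.13, SE 0.13, adjusted p = 1.5e-05). rec7, needed for meiotic recombination, read 303, 229 and 342 in the double null and 511, 566 and 476 in the zfs1 null (log2 change -0.85, SE 0.16, adjusted p = 0.0032). The spore wall gene isp3 lies next to pfl8 and had 38.9, 47.2 and 42.4 against 87.9, 56.2 and 92.7 (log2 change -0.85, SE 0.24, adjusted p = 0.035), passing in 14 of 21 settings. The remaining falls (num1, dhc1, crs1, sgo1 and spo6) lay between -0.53 and -0.34.

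The 3 that rose were meu10, mug153 and mek1. meu10, which encodes a protein of the ascospore wall, is the neighbour of cbf12 on chromosome III, transcribed away from it. It had 264, 173 and 242 in the double null, against 107, 107 and 95.7 in the zfs1 null (log2 change 1.11, SE 0.15, adjusted p = 0.00011). In the other 2 strains it was 326, 371 and 341 (cbf12 null) and 261, 294 and 285 (WT), so the zfs1 null was the lowest of the 4. Of the other 5 genes measured nearest to cbf12, none passed: eaf1 (0.19), ptc2 (-0.04), ssp1 (-0.30), set7 (-0.06) and qcr7 (0.05). mug153 was faint, at 18.6, 18.9 and 20.7 in the double null and 7.03, 12.3 and 8.45 in the zfs1 null (log2 change 1.10, SE 0.21, adjusted p = 0.003), and mek1, a meiotic checkpoint kinase, had 370.2, 299 and 328 against 224, 197 and 187 (log2 change 0.71, SE 0.12, adjusted p = 0.0015). Among all genes named mug or meu (109 measured), 6 rose (5.5%, against 3.24% of all genes) and 10 fell (9.17%, against 5.76%). Without double-null replicate 1, 7 rose and 16 fell, where 177 of all genes rose and 269 fell.

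Genes that glucose represses, and genes for using other carbon sources, formed the next group. Cells in rich glucose medium keep such genes low, and lift them when glucose runs out. Of 18 measured (23 listed), 8 fell (44.4%, against 5.76% of all genes) and none rose, with a median log2 change of -0.32. gld1, a glycerol dehydrogenase, had 184, 179 and 198 in the double null and 629, 681 and 713 in the zfs1 null (log2 change -1.85, SE 0.10, adjusted p = 4.5e-09). inv1, the secreted invertase that splits sucrose, read 406, 261 and 412 in the double null and 1166, 1276 and 1121 in the zfs1 null (log2 change -1.75, SE 0.14, adjusted p = 1.9e-07). fbp1, the gluconeogenic fructose-1,6-bisphosphatase, had 453, 339.8 and 381 against 604, 659 and 609 (log2 change -0.68, SE 0.12, adjusted p = 0.0019).

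For gld1 and inv1 the double null was the lowest strain of the 4, with the cbf12 null at 661, 639 and 659 and 1072, 1002 and 995 and WT at 876, 1004 and 1098 and 1014, 951 and 924. The galactose genes gal1 and gal7, the maltase gene mal1, the dihydroxyacetone kinase gene dak2 and rsv1 complete the 8. Their changes other than rsv1 were small, from -0.47 (gal7) to -0.27 (dak2), and gal7 and dak2 passed in 9 and 5 of 21 settings. The count was 6 without double-null replicate 2, and 4 with either median centring or quantile normalization. In these settings 130, 108 and 87 of all genes fell, against 167 in the main fit.

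All 8 hexose transporter genes were measured, and 4 fell (50%, against 5.76% of all genes) and 1 rose (12.5%, against 3.24%). ght1 had the second largest fall of a gene other than cbf12, at 73.8, 79.2 and 85.7 in the double null and 406, 403 and 364 in the zfs1 null (log2 change -2.30, SE 0.12, adjusted p = 3.9e-09). ght4 read 628, 538 and 530.4 in the double null and 988, 1003 and 955 in the zfs1 null (log2 change -0.80, SE 0.08, adjusted p = 6.2e-06), and ght6 521, 409 and 609 against 902, 868 and 871 (log2 change -0.80, SE 0.12, adjusted p = 0.00034). The double-null arrays lay below the zfs1-null arrays in each.

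ght5, the main high-affinity glucose transporter, was bright in both strains, at 2965, 3037 and 2789.5 in the double null and 3681, 3801 and 3973 in the zfs1 null (log2 change -0.38, SE 0.07, adjusted p = 0.0018). ght8, which lies beside ght1 on chromosome III, rose, with 4694, 4842 and 4844 in the double null and 3438, 3563 and 3501 in the zfs1 null (log2 change 0.45, SE 0.06, adjusted p = 6e-05). Thus adjacent members of the family moved in opposite directions. ght2 and ght7 overlapped between the strains (log2 changes -0.02 and -0.17). ght3, a gluconate transporter, had 109, 68.9 and 90.1 in the double null and 125, 125 and 111 in the zfs1 null and did not pass (log2 change -0.45, SE 0.16, adjusted p = 0.089), although it read 1452, 1515 and 1538 in the cbf12 null against 251, 194 and 185 in WT. Probes of related transporters may share targets, which was not tested.

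Of 13 measured glycolysis and fermentation genes 1 fell (7.69%, against 5.76% of all genes), eno102, the lesser of the enolase genes. The list's median log2 change was 0.02. eno102 had 496, 447 and 446 in the double null and 1011, 1048 and 979 in the zfs1 null (log2 change -1.13, SE 0.08, adjusted p = 7e-08). The main enolase gene eno101 read 4491, 5259 and 4487 in the double null and 4011, 4376 and 4433 in the zfs1 null and did not pass (log2 change 0.15, SE 0.08, adjusted p = 0.25). No gene of the cAMP pathway, which reports glucose to the cell, passed (0 of 11). Their median was -0.28, and git3, the glucose receptor gene, had 443, 167 and 283 in the double null and 532, 403 and 410.1 in the zfs1 null, overlapping and with replicate 2 lowest. Without double-null replicate 1, 2 of the 11 fell, where 269 of all genes fell.

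**Figure D3:**
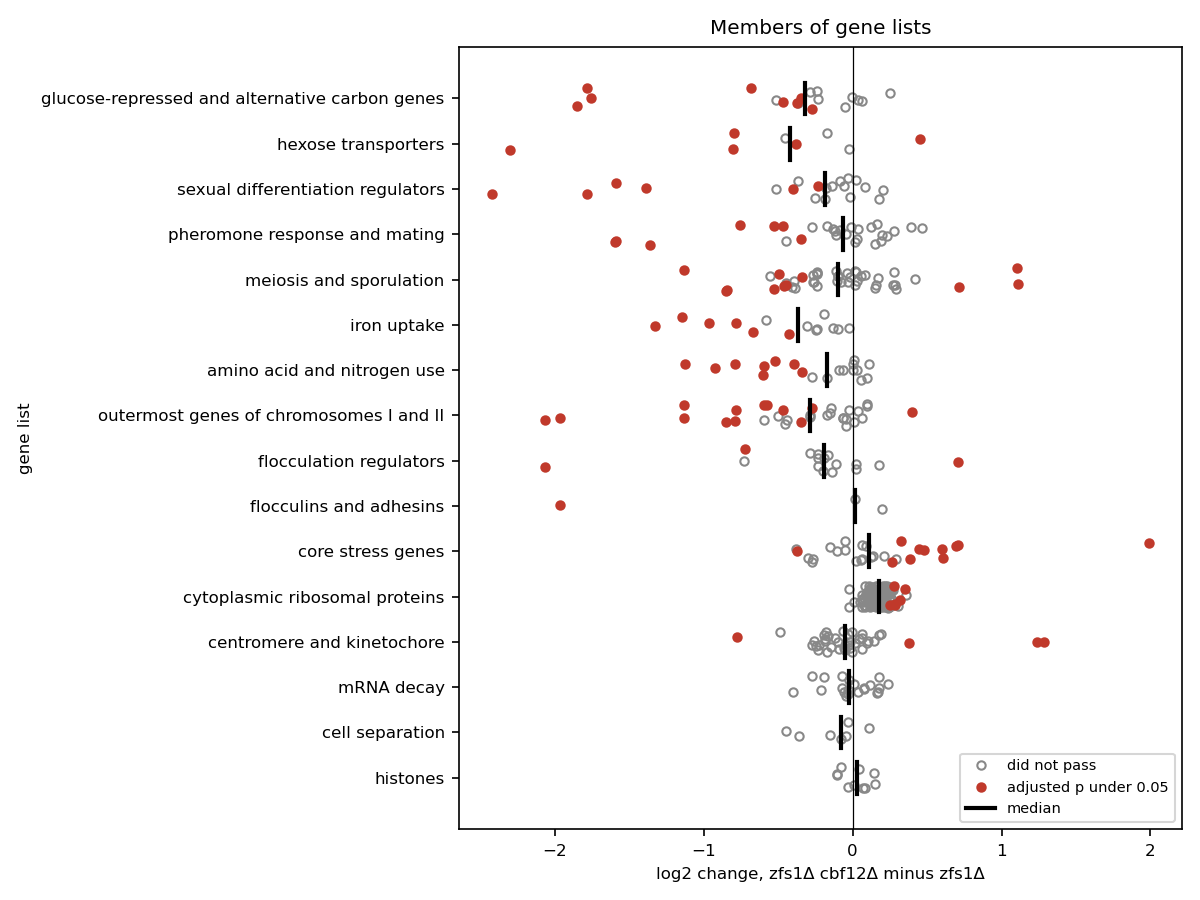
Log2 change (double null minus zfs1 null) of each measured member of 16 gene lists, cbf12 and zfs1 left out. Filled points passed at an adjusted p under 0.05, open points did not, and bars are medians. Carbon, hexose transporter, iron and nitrogen genes extend to the left, core stress genes to the right, and the ribosomal proteins lie in a narrow band just above 0.

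Iron uptake in fission yeast is reductive, through a surface reductase, an oxidase and a permease, or uses the siderophore ferrichrome, and the repressor Fep1 shuts both off in iron-replete cells. Of 14 measured genes (16 listed) 6 fell (42.9%, against 5.76% of all genes) and none rose (median log2 change -0.37). The permease gene fip1 had 31.4, 25.2 and 49.0 in the double null and 90.5, 81.9 and 82.7 in the zfs1 null (log2 change -1.33, SE 0.20, adjusted p = 0.00039). Its divergent neighbour fio1, the oxidase gene, read 14.3, 19.7 and 18.2 in the double null and 30.0, 37.0 and 34.4 in the zfs1 null (log2 change -0.97, SE 0.20, adjusted p = 0.0056). The reductase gene frp1 had 339, 264 and 278 against 648, 645 and 639.6 (log2 change -1.14, SE 0.11, adjusted p = 4.9e-06).

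In frp1 the double null resembled the cbf12 null (307, 318 and 283), and the zfs1 null was closer to WT (703, 799 and 888). abc3, an ABC transporter of the vacuole, read 629, 695 and 589.7 in the double null and 1066, 1082 and 1143 in the zfs1 null (log2 change -0.79, SE 0.08, adjusted p = 7e-06). The divergent pair for ferrichrome synthesis, sib1 and sib2, changed by -0.43 (adjusted p = 0.034) and -0.67 (adjusted p = 0.001). fep1 itself read 288, 261 and 271 in the double null and 325, 309 and 337 in the zfs1 null and did not pass (log2 change -0.24, SE 0.15, adjusted p = 0.3), and the siderophore transporter genes str1 (-0.13) and str3 (-0.03) overlapped between strains. In the list of copper, zinc and phosphate starvation genes 0 of 8 passed, with the copper transporter genes ctr4 and ctr5 at -0.03 and 0.06.

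Of 19 measured genes for amino acid and nitrogen use (22 listed), 8 fell (42.1%, against 5.76% of all genes) and none rose (median log2 change -0.17). isp4, an oligopeptide transporter, had 415, 323 and 433 in the double null and 883, 853 and 803 in the zfs1 null (log2 change -1.13, SE 0.11, adjusted p = 5.9e-06). isp7, an oxygenase that acts in amino acid sensing, read 328, 203 and 259 in the double null and 535, 477 and 459.6 in the zfs1 null (log2 change -0.92, SE 0.15, adjusted p = 0.00076). isp5, an amino acid permease, had 86.9, 66.8 and 91.7 against 148, 132 and 141 (log2 change -0.79, SE 0.15, adjusted p = 0.0029), and it did not pass after quantile normalization.

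The ammonium transporter amt1, the proline permease put4, the permease per1, the vacuolar protease isp6 and the GATA factor gaf1 had changes from -0.60 (amt1) to -0.34 (gaf1). The count was 5 without double-null replicate 2 and 4 after quantile normalization, where 130 and 87 of all genes fell. Outside the lists, the uracil-regulated pair urg1 and urg2 fell, urg1 with 243, 206 and 210.2 in the double null and 494, 534 and 517 in the zfs1 null (log2 change -1.23, SE 0.09, adjusted p = 1.1e-07). urg2, a uracil phosphoribosyltransferase, read 80.6, 83.1 and 111 in the double null and 223, 234 and 263 in the zfs1 null (log2 change -1.40, SE 0.15, adjusted p = 9.5e-06). Both were higher in the cbf12 null than in WT, with log2 changes of 0.84 and 0.61. At the other WT level, estimated through the zfs1-null arrays, urg1 was again higher (0.71) and urg2 did not pass (-0.14, adjusted p = 0.68). urg3 was 544, 485 and 609 in the double null and 634, 698 and 724 in the zfs1 null and did not pass (log2 change -0.33, SE 0.10, adjusted p = 0.053).

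Of 28 measured core stress genes (31 listed) 10 rose (35.7%, against 3.24% of all genes) and 1 fell, tms1 (median log2 change 0.11). gst2, a glutathione S-transferase, had the largest rise of any gene, with 974, 1298 and 1213 in the double null and 296, 315 and 262 in the zfs1 null (log2 change 1.99, SE 0.13, adjusted p = 3.5e-08). In the cbf12 null it was 3542, 3074 and 3387, against 315, 411 and 421 in WT. Both pairs separated without overlap, and the rise was larger with Zfs1 present (difference -1.14, adjusted p = 0.00048).

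srx1, the sulfiredoxin that restores oxidised peroxiredoxin, read 109, 116 and 141 in the double null and 71.0, 75.4 and 77.0 in the zfs1 null (log2 change 0.71, SE 0.15, adjusted p = 0.0084). obr1, a quinone oxidoreductase-like protein, had 2914, 3194 and 2912 in the double null and 1767, 1902 and 1894 in the zfs1 null (log2 change 0.70, SE 0.11, adjusted p = 0.00046). The small heat shock gene hsp16 read 2287, 2420.3 and 2200.3 against 1387, 1497 and 1660.0 (log2 change 0.61, SE 0.08, adjusted p = 0.00019), and in this gene the double null stood at the WT level of 2601, 2359 and 2204. gpd1, which makes the osmolyte glycerol, had 3076, 2674 and 3156 in the double null and 1983, 1847 and 2045 in the zfs1 null (log2 change 0.60, SE 0.07, adjusted p = 4e-05). The catalase gene ctt1, the thioredoxin genes trx1 and trx2, the pyridoxal reductase gene plr1 and hsp9 rose by 0.26 (hsp9) to 0.48 (trx2). In the cbf12 null against WT, 22 of the 28 passed as higher and none as lower, where 9.18% of all genes were higher and 18.9% lower. At the other WT level 18 passed as higher and none as lower, where 253 of all genes were higher and 364 lower.

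The next largest rises were a divergent gene pair on chromosome II. abp2, a DNA-binding protein named for replication origins, had 1570.5, 1942 and 1672 in the double null and 717, 699 and 701 in the zfs1 null (log2 change 1.29, SE 0.09, adjusted p = 5.7e-08). cnp3, the centromere protein CENP-C, read 1859, 2174 and 1835 in the double null and 782, 881 and 817 in the zfs1 null (log2 change 1.24, SE 0.08, adjusted p = 3.5e-08). cnp3 stood at 1153, 1255 and 1159.5 in the cbf12 null and 1921, 1844 and 1800.3 in WT. The double null was thus at the WT level for cnp3, and each single deletion below it.

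The list of centromere and kinetochore genes was mixed: 3 of 40 measured rose (abp2, cnp3 and dad1), and 1 fell (dad5), with a median log2 change of -0.05. These were 7.5% and 2.5%, against 3.24% and 5.76% of all genes. dad1 and dad5 belong to the DASH complex and differed in sign (0.38, adjusted p = 0.0077, and -0.77, adjusted p = 0.0091). ura4, the orotidine monophosphate decarboxylase of uracil synthesis and a common selectable marker, had 3089, 3286 and 3354 in the double null and 1548, 1707 and 1529 in the zfs1 null (log2 change 1.02, SE 0.08, adjusted p = 3.3e-07). It was 2673, 2928 and 2943 in the cbf12 null and 2698, 2661 and 2181 in WT, so the zfs1 null was the low strain. In the independent arrays of projects 488 and 529 the zfs1 deletion changed ura4 by 0.04 (adjusted p = 0.62). Of 30 measured genes commonly used as auxotrophic markers, ura4 and ura5 rose (6.67%, against 3.24% of all genes) and none fell.

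Among the 12 largest rises were also epe1, mag2, mrpl39, eta2 and frg1. epe1, a JmjC protein that opposes heterochromatin spreading, had 1428, 1254 and 1238 in the double null, 787, 753 and 749 in the zfs1 null and 1603, 1436 and 1494 in WT (log2 change 0.77, SE 0.08, adjusted p = 8.2e-06). mag2, a DNA glycosylase, read 1237, 1090.2 and 1070.3 in the double null and 686, 615 and 635 in the zfs1 null (log2 change 0.81, SE 0.08, adjusted p = 5.9e-06). Its convergent neighbour rpt6, a proteasome ATPase, had 2652, 2533 and 2453 in the double null and 1731, 1885 and 1795 in the zfs1 null (log2 change 0.50, SE 0.06, adjusted p = 5.7e-05). mrpl39, of the mitochondrial ribosome, eta2 and frg1 rose by 0.82, 0.89 and 0.75.

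Genes for the cytoplasmic ribosome had a median slightly above that of all genes. Of 112 measured genes (132 listed) 6 rose (5.36%, against 3.24% of all genes) and none fell, with a median log2 change of 0.18 and values from -0.02 to 0.36. rpl101, for a protein of the large subunit, had 4101, 4720.5 and 4229.5 in the double null and 3361, 3527 and 3820.2 in the zfs1 null (log2 change 0.28, SE 0.08, adjusted p = 0.037). The count was 0 without double-null replicate 2 and 39 without double-null replicate 1, where 62 and 177 of all genes rose. Of 18 measured ribosome biogenesis genes 3 rose (16.7%), and of 39 mitochondrial ribosomal protein genes 3 rose (7.69%) and none fell, against 3.24% of all genes that rose. Without double-null replicate 2, 2 of the ribosome biogenesis genes rose, and 1 of the mitochondrial genes rose and 2 fell. No gene passed among histones (0 of 10), cell separation genes (0 of 7) and mRNA decay genes (0 of 22, zfs1 included). The lists that follow stand against 3.24% of all genes that rose and 5.76% that fell. Of 16 G1/S genes 2 fell (12.5%, res2 and rad21), and of 19 mitosis genes 2 fell (10.5%, plo1 and cdc15). Of 42 splicing factors 1 rose (2.38%, cwf21), and of 16 wtf genes 1 rose (6.25%, wtf16). In lipid metabolism 1 of 28 rose (3.57%) and 3 fell (10.7%). In cell wall synthesis 1 of 29 rose (3.45%) and 3 fell (10.3%), among them the α-glucan synthase gene mok13 at -0.81. Without double-null replicate 2 the falls were 1 (G1/S), 2 (mitosis), 2 (lipid) and 1 (cell wall), where 130 of all genes fell.

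Position along the chromosome was described as well. Among the outermost 40 protein-coding genes at each end of chromosomes I and II, 32 of 160 were measured, and 12 fell (37.5%, against 5.76% of all genes) and 1 rose (3.12%, against 3.24%), with a median log2 change of -0.29. They include genes already named (grt1, pfl8, isp3, eno102, isp5, abc3, put4, gal1, gal7 and dak2) along with aes1 (log2 change -1.13, SE 0.09, adjusted p = 1.7e-07) and cao2 (log2 change -0.58, SE 0.14, adjusted p = 0.014), and rpc40 rose by 0.40. The count of falls was 8 under median centring and 6 under quantile normalization, where 108 and 87 of all genes fell. Of 1698 pairs of measured genes adjacent in the annotation, both members passed in 22 (1.30%). Leaving out the pair with cbf12, 15 of 21 pairs went the same way, 4 up and 11 down, and 6 went opposite ways. Of the 261 genes that passed, 94 rose and 167 fell, and pairs can share a gene, as ght4 pairs with mal1 and with frp1. Whether adjacent genes moved together more often than other genes was not tested. The pairs that moved together include cnp3 and abp2, fip1 and fio1, sib1 and sib2, ght4 and frp1, mag2 and rpt6, and isp3 and pfl8.

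Deletion of cbf12 with Zfs1 present changed 815 genes (28.1%) in the cbf12 null against WT. The effects in the 2 backgrounds shared no arrays. Across 2897 genes, which are not independent replicates, Pearson's r of the log2 changes was 0.27 and Spearman's rho was 0.35. Of the 94 genes that rose without Zfs1, 29 also rose with it (30.9%, against 9.18% of all genes) and 5 fell (5.32%, against 18.9%). The 29 were 10.9% of the 266 that rose with Zfs1, where 3.24% of all genes rose without it. Of the 167 that fell, 71 also fell with Zfs1 present (42.5%, against 18.9% of all genes) and 23 rose (13.8%, against 9.18%). The 71 were 12.9% of the 549 that fell with Zfs1, where 5.76% of all genes fell without it. At the other WT level the counts were 31, 0, 66 and 17, where 253 of all genes rose and 364 fell with Zfs1. The difference of the effects itself passed for 283 genes (9.76%), 127 higher (4.38%) and 156 lower (5.38%) without Zfs1, and these include 25 of the 94 and 60 of the 167. At the other WT level, the zfs1-null signal less the zfs1 effect of the other projects, the difference passed for 631 genes.

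By that test with the WT arrays of project 582, 3 patterns among the named genes are described here. Some genes belonged to another pattern at the other WT level. At that level both effects subtract the same zfs1-null arrays, so their agreement is partly built in. Those arrays cancel out of the difference. Not every named gene had 1 of these 3 patterns. ght3 passed with Zfs1 alone (2.85, difference -3.30), gst2 rose in both backgrounds with a difference that passed, and arz1 passed in neither background. Genes such as grt1 (log2 changes -2.06 without Zfs1 and -1.98 with it), rgs1 (-1.59 and -1.24), ste11 (-1.39 and -1.001), rec10 (-1.13 and -1.53) and frp1 (-1.14 and -1.39) passed in both backgrounds in the same direction, and their difference did not pass. For grt1 it was -0.08 (SE 0.31, adjusted p = 0.9). At the other WT level grt1, rec10 and frp1 passed in both backgrounds again and their difference did not, whereas the difference passed for ste11, and rgs1 had an effect of -0.07 with Zfs1 (adjusted p = 0.81) and a difference that passed (-1.52, adjusted p = 1.7e-08). Genes such as pfl8 (-1.96 and 0.10), ght1 (-2.30 and -0.19) and inv1 (-1.75 and 0.09) passed without Zfs1, did not pass with it, and had a difference that passed, for pfl8 -2.07 (SE 0.22, adjusted p = 1e-05). At the other WT level ght1 and inv1 again did not pass with Zfs1, while pfl8 was higher (0.66, adjusted p = 0.014), and the 3 differences passed. Genes of the third kind changed in opposite directions: eno102 (-1.13 and 2.20, difference -3.33, adjusted p = 1.1e-11), mei2 (-2.42 and 0.86, difference -3.28, adjusted p = 1e-07), urg1 (-1.23 and 0.84) and mbx2 (-0.72 and 1.35). At the other WT level eno102, urg1 and mbx2 were again higher with Zfs1 present (1.46, 0.71 and 0.60), mei2 did not pass there (0.27, adjusted p = 0.34), and the 4 differences passed. By group, the carbon list of 18 genes had 8 falls without Zfs1, whereas with Zfs1 it had 7 rises and 1 fall. Of all genes 5.76% fell without Zfs1, and 9.18% rose and 18.9% fell with it. In 9 of the 18 the difference passed, as it did for 9.76% of all genes. At the other WT level these were 5 rises, 2 falls and 12 genes. There 253 of all 2899 genes rose, 364 fell and 631 had a difference that passed.

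**Figure D4:**
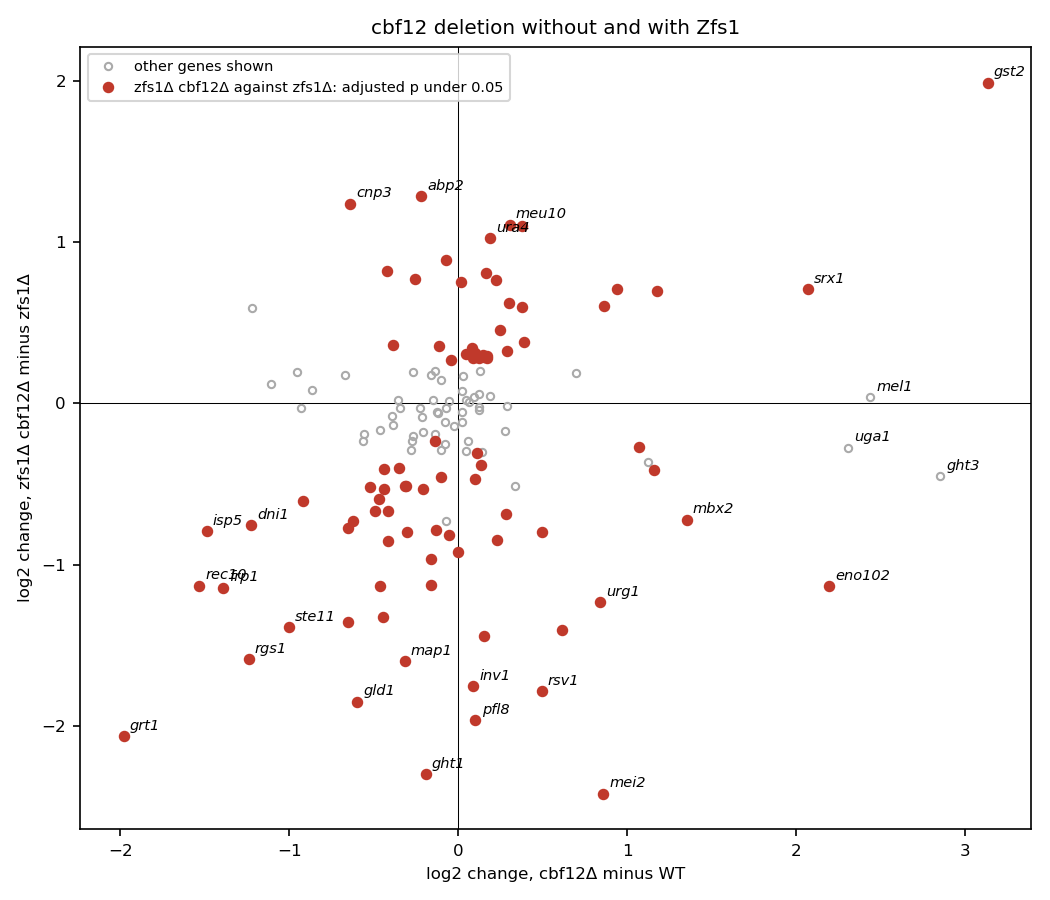
Log2 change on cbf12 deletion for 142 named genes, without Zfs1 (vertical, double null minus zfs1 null) and with Zfs1 (horizontal, cbf12 null minus WT). Filled points passed in the double null against the zfs1 null at an adjusted p under 0.05. gst2 lies at the upper right, grt1 at the lower left, and eno102, mei2 and mbx2 at the lower right, where the effects have opposite signs.

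Genes that follow zfs1 were taken from the 16 arrays of projects 488 and 529, in which 1125 genes (38.8%) changed on zfs1 deletion. Leaving out zfs1 and cbf12, 34 genes rose there by at least 1.5-fold with the same sign in each project. On cbf12 deletion in zfs1-null cells 5 of these fell and none rose (14.7% fell, against 5.76% of all genes): pfl8, grt1, rgs1, gnr1 and mug176. The other 29, which include arz1 and oxr1, did not pass. For pfl8 the zfs1 effect in those projects was 1.94 and the cbf12 effect here -1.96. For grt1 they were 0.98 and -2.06, and for rgs1 0.67 and -1.59. In project 582 itself rgs1 was lower in the zfs1 null (247, 282 and 234) than in WT (283, 392.2 and 419), the opposite direction to projects 488 and 529. gnr1 had 746, 704 and 648 in the double null and 1059.9, 983 and 962 in the zfs1 null (log2 change -0.52, SE 0.10, adjusted p = 0.0028), and mug176 701, 714 and 729.9 against 913, 1024 and 889 (log2 change -0.39, SE 0.08, adjusted p = 0.0066).

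Of 49 genes that fell by at least 1.5-fold on zfs1 deletion in the other projects, 14 also fell on cbf12 deletion here (28.6%) and 5 rose (10.2%). Of all genes 5.76% fell and 3.24% rose. mei2, ste4, fip1, urg1, urg2, isp3, isp5, isp7, fbp1 and dak2 are among the 14. For mei2 the zfs1 effect was -2.05 and the cbf12 effect -2.42. The 5 that rose were gst2, cnp3, mug153, mug177 and ctt1. Among all 625 genes that rose on zfs1 deletion at any size, 48 fell (7.68%) and 8 rose (1.28%) here, and among the 439 that fell, 53 fell (12.1%) and 31 rose (7.06%), against 5.76% and 3.24% of all genes. Without double-null replicate 2, 33 of the 625 fell and 2 rose, and without double-null replicate 1, 74 fell and 25 rose. Under median centring 32 of the 625 fell and 13 rose, and 34 of the 439 fell and 42 rose. Over all genes 130 fell and 62 rose without double-null replicate 2, and 269 fell and 177 rose without replicate 1. With median centring 108 of all genes fell and 136 rose.

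**Figure D5:**
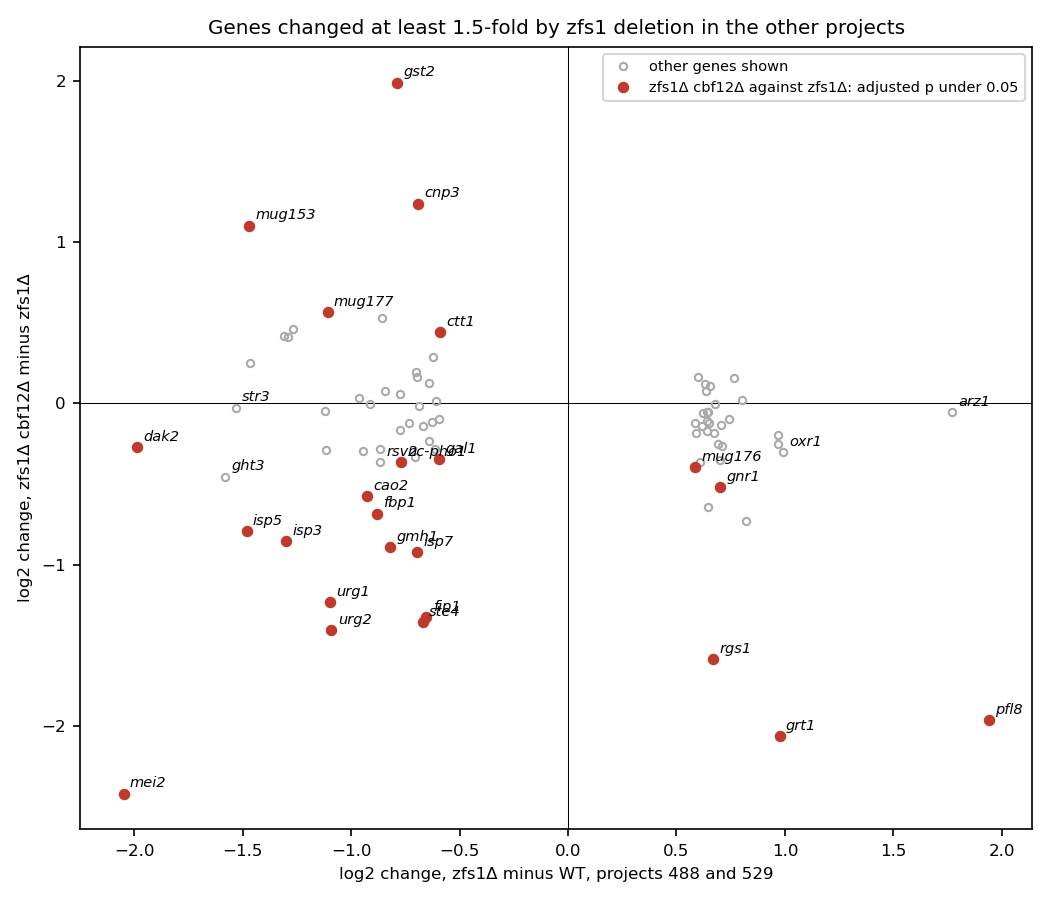
Cbf12 effect in cells without Zfs1 (vertical, log2 change, double null minus zfs1 null) for 83 genes that changed at least 1.5-fold on zfs1 deletion in projects 488 and 529 (horizontal, log2 change, zfs1 null minus WT). Filled points passed in the vertical comparison at an adjusted p under 0.05. pfl8, grt1 and rgs1 lie at the lower right, arz1 near 0 on the vertical axis, and mei2 at the lower left.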

How the data were processed

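For every probe set on an array the authors deposited a linear intensity, the signal computed by MAS5, per the submitters' processing notes. Its version, settings and detection calls are not stated. Trimmed by 2 percent at either end, the 12 arrays of project 582 had means of 500.1 to 500.2. The arrays had thus been scaled to a common mean, which hides any change common to most transcripts. Amplification of RNA before labelling can distort differences, which was not measured.

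Of 10928 probe sets, 2917 named 1 S. pombe gene in the array's gene table. Probe sets naming several genes (20), another species (2601) or none (5390) were left out. The brightest probe set was used for the 14 genes with more than 1, which left 2899 genes, and 2896 to 2899 lay above background per array. The gene table of assembly ASM294v3 gave names and gene order. The build behind the array design is not stated, so no coordinates are printed, and no sequences were used. A planned search of promoters for motifs was not run.

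Log2 signals were tested with limma 3.58.1 in R 4.3.3 (lmFit, and eBayes with an intensity trend), two-sided, with Benjamini-Hochberg adjustment over 2899 genes at 0.05. The 12 arrays of project 582 were fitted together, and the 16 arrays of projects 488 and 529 with a project term. The number of arrays limits the precision. Members, gene lists and tests were chosen with earlier results of these data known. Genes were named by a rule: the 12 largest rises and 16 largest falls, up to 5 called members of each list (or its 2 brightest), all measured adhesion genes, hexose transporters and regulators of flocculation and differentiation, the 3 measured genes on each side of cbf12, the 6 largest differences between backgrounds in each direction and the 5 largest zfs1 effects in each direction (144 genes). Genes outside it (byr1, spk1, num1, dhc1, crs1, sgo1, spo6, mek1, eno101, git3, sib1, fep1, str1, per1, isp6, gaf1, gal1, mal1, tms1, ctt1, trx1, trx2, plr1, hsp9, urg3, rpt6, rpc40, cao2, gnr1, mug176 and mug177) were named after their values were seen.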

Additional observations from a re-analysis of the deposited data

Results flagged for a closer look

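The effect of cbf12 deletion differed between cells without and with Zfs1 for 46 of the 144 named genes by limma's interaction test (adjusted p from 1.1e-11 to 0.046). Some of them were named for having the largest differences in this same test, so their passing was fixed by the naming rule. Over all 2899 genes the difference passed for 283 (9.76%). The values below are log2 changes of the double null against the zfs1 null minus those of the cbf12 null against WT. For 30 genes the value was below 0: eno102 (-3.33), ght3 (-3.30), mei2 (-3.28), uga1 (-2.58), mel1 (-2.40), rsv1 (-2.28), ght1 (-2.10), mbx2 (-2.07), urg1 (-2.07) and pfl8 (-2.07), then urg2 (-2.02), inv1 (-1.84), mug114 (-1.60), lsd90 (-1.57), rsv2 (-1.49), srx1 (-1.36), dak2 (-1.34), ght4 (-1.30), map1 (-1.28) and gld1 (-1.25), then gst2 (-1.14), rec7 (-1.08), fbp1 (-0.97), isp4 (-0.97), isp7 (-0.92), mok13 (-0.76), ste4 (-0.71), aes1 (-0.67), abc3 (-0.65) and ght5 (-0.51). For 16 genes it was above 0: mag2 (0.64), isp5 (0.70), frg1 (0.74), mrp5 (0.75), meu10 (0.81), ura4 (0.84), mbx1 (0.84) and prz1 (0.95), then eta2 (0.97), epe1 (1.03), sim4 (1.15), mug133 (1.23), mrpl39 (1.24), abp2 (1.51), meu27 (1.82) and cnp3 (1.88). In 30 of the 46 the effects in the 2 backgrounds had opposite signs, and in 22 with the other WT level described next. Both counts take the sign alone, whether or not each effect passed. The 30 include genes with an effect that did not pass, such as pfl8 and inv1 with Zfs1 present and uga1 without Zfs1. Fewer genes passed in both backgrounds with opposite signs, among them eno102, mei2, urg1 and mbx2.

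With WT estimated from the zfs1 effect of projects 488 and 529, 42 of the 46 passed and 45 kept their sign. meu10, ura4, mag2 and meu27 did not pass, and meu10 changed sign, with a difference of -0.41 (adjusted p = 0.051). For ura4 the difference was 0.15 under that estimate (adjusted p = 0.33), for mag2 0.04 (adjusted p = 0.77) and for meu27 0.36 (adjusted p = 0.29). Of the 96 other named genes, leaving out the deleted cbf12 and zfs1, 30 passed under that estimate alone, among them rgs1 (-1.52, adjusted p = 1.7e-08) and ste11 (-0.50, adjusted p = 0.044). Under the same estimate 631 of all 2899 genes passed.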

How the results depend on the processing

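The count of genes changed on cbf12 deletion without Zfs1 was 261, and leaving out 1 array at a time gave 120 to 446. The extremes came from zfs1-null replicate 2 (120) and double-null replicate 1 (446), and without zfs1-null replicates 1 and 3 it was 156 and 150. Without double-null replicate 2, which stood farthest from its group, it was 192. Fitted on the 6 arrays of the pair alone, 164 passed. The other settings gave 194 (quantile normalization) to 308 (array weights). The median of all genes was -0.03 as deposited and 0.04 after median centring. The difference between backgrounds passed for 283 genes, for 193 to 366 with 1 array left out, for 534 with array weights and for 631 at the other WT level. The zfs1 effect in projects 488 and 529 passed for 1125 genes and for 997 to 1159 with 1 array left out. The labels do not say whether replicate numbers pair the samples. Deviations from the strain means had correlations of 0.306, 0.171 and -0.0285 between same-numbered double-null and zfs1-null arrays. Between differently numbered arrays they ran from -0.285 to 0.166. With 3 arrays per strain these values do not settle whether the numbers pair the samples. With the replicate number as a block, 235 genes passed (85 higher and 150 lower), 224 of them among the 261, the difference passed for 297 and the zfs1 effect for 1006.

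Of the 86 named genes that passed, 55 passed in every setting and none of the 144 reversed a call. The 31 others missed the threshold in 214 values, and 9 genes that did not pass did so in 11. Leaving out genes with a signal under 50 removed the values of a few faint named genes. Signals near background, as for mug153 and fio1, limit the precision of their folds, and the number of arrays limits all of them. The cause of these dependences was not tested.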
